A study of Mus musculus with 6 samples.

Results

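The genes described here are 9 genes of the machinery that holds the mouse egg at metaphase of meiosis II: *Mos*, *Map2k1*, *Map2k2*, *Mapk3*, *Rps6ka2*, *Fbxo43*, *Fbxo5*, *Cdc20* and *Fzr1*. They were chosen by symbol from the 53465 Ensembl genes of the deposited count table, and all 9 were found there with a single identifier each. RNA was sequenced from 6 pools of M II oocytes of Kunming (KM) mice aged 9 to 10 months, in vitro matured for 16 h, 3 of them in the presence of 10 μM quercetin, a plant flavonol, and 3 in its absence. Each pool joined 15 oocytes of 3 mice, and the labels give no transgene or deletion for either group. The comparison asks whether quercetin during maturation changed the transcripts of the arrest machinery in oocytes of aged females. No young mice and no immature oocytes were among the samples, so a level here cannot be set against either. A pool is a bulk sample, in which fewer transcripts per oocyte and fewer oocytes that hold the transcript cannot be told apart.

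An ovulated or in vitro matured egg waits at metaphase until the sperm arrives, and the activity that keeps it there is called cytostatic factor. Its start is *Mos*, a kinase made from stored maternal mRNA during maturation, which activates the kinases MEK1 and MEK2 (*Map2k1*, *Map2k2*). These activate MAP kinases such as ERK1 (*Mapk3*), and RSK kinases such as the product of *Rps6ka2* lie below them. The arm ends at Emi2 (*Fbxo43*), an inhibitor of the anaphase-promoting complex (APC/C), the ubiquitin ligase that would otherwise destroy cyclin B and securin. Emi1 (*Fbxo5*) is its relative, best known from mitotic cells and from earlier meiosis. *Cdc20* and *Fzr1* (Cdh1) are the APC/C activators, the former acting at anaphase and the latter at mitotic exit and, in oocytes, during prophase arrest. The calcium wave of fertilization leads to the destruction of Emi2, and *Cdc20* then opens the way to anaphase.

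The pools held between 7880467 and 9938743 counts on genes, and a gene at 3 counts, the floor used here, stood at 0.302 to 0.381 CPM (counts relative to the total of the pool). All CPM levels of genes given here are also TMM-scaled, which corrects the totals for differences in composition. That floor covers counting error only. All 10 oocyte markers were present, with a summed level of 23340 to 26938 CPM in control pools and 27228 to 28721 CPM in quercetin pools. The sum hides differences between them, since 6 were higher and 4 lower with quercetin by fold estimate. Among the lower ones, *Ooep* had 718 ± 242 CPM without and 381 ± 222 CPM with quercetin (SD, n = 3, groups overlapping). Its log2 fold change (quercetin over control) was -0.92 (unadjusted p = 0.0412 and adjusted p = 0.988 in edgeR's quasi-likelihood test). For the other lower ones, *Zp2*, *Zp3* and *Padi6*, it was -0.067, -0.089 and -0.015. Of 14 cumulus and granulosa markers, 6 (*Amh*, *Foxl2*, *Ptx3*, *Vcan*, *Col1a2* and *Amhr2*) had no count in any pool. The summed level of the list was 61.4 to 77.1 CPM without and 77.7 to 84.5 CPM with quercetin, most of it from *Cyp19a1*. Neither the sum nor its part in the results was tested. *Cyp19a1* alone had a log2 fold change of 0.22 (edgeR adjusted p = 0.988). Its groups did not overlap, as was so for 5.42% of all tested genes in this direction. Of 7 blood and stroma markers, 3 were at 0 and the list summed to 36.9 to 44.3 CPM over the 6 pools. Most of this came from *Pecam1*, with a mean of 32.7 CPM without and 34.5 CPM with quercetin. The sources used here do not say whether the pools of a group came from separate sets of mice, so p-values measure the spread between these pools.

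Transcripts of most of these genes were plentiful, and no member passed the test between the groups. Of the 9 genes, 8 had enough counts for the comparison, and *Rps6ka2* did not. With edgeR's quasi-likelihood test, adjusted by Benjamini-Hochberg over 11842 genes, 0 of the 8 had an adjusted p under 0.05, where the share over all tested genes was 0%. At an unadjusted p under 0.05 there was 1 of the 8, *Map2k2*, beside 4.03% of all tested genes (1.89% lower and 2.14% higher with quercetin). DESeq2 called 0 of the 8 at an unadjusted p under 0.05, beside 3.24% of all 11842 genes. With adjustment it also called none, beside 0.144% of the 11842, but it gave no adjusted p for *Map2k2*. The estimates were positive for 4 members and negative for 4, with a median log2 fold change (quercetin over control) of -0.031 beside -0.026 over all tested genes. The estimates differed in precision, since the 95% interval of the fold ran from 0.856 to 1.31 for *Fbxo43* and from 0.331 to 0.997 for *Map2k2*.

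**Figure D1:**
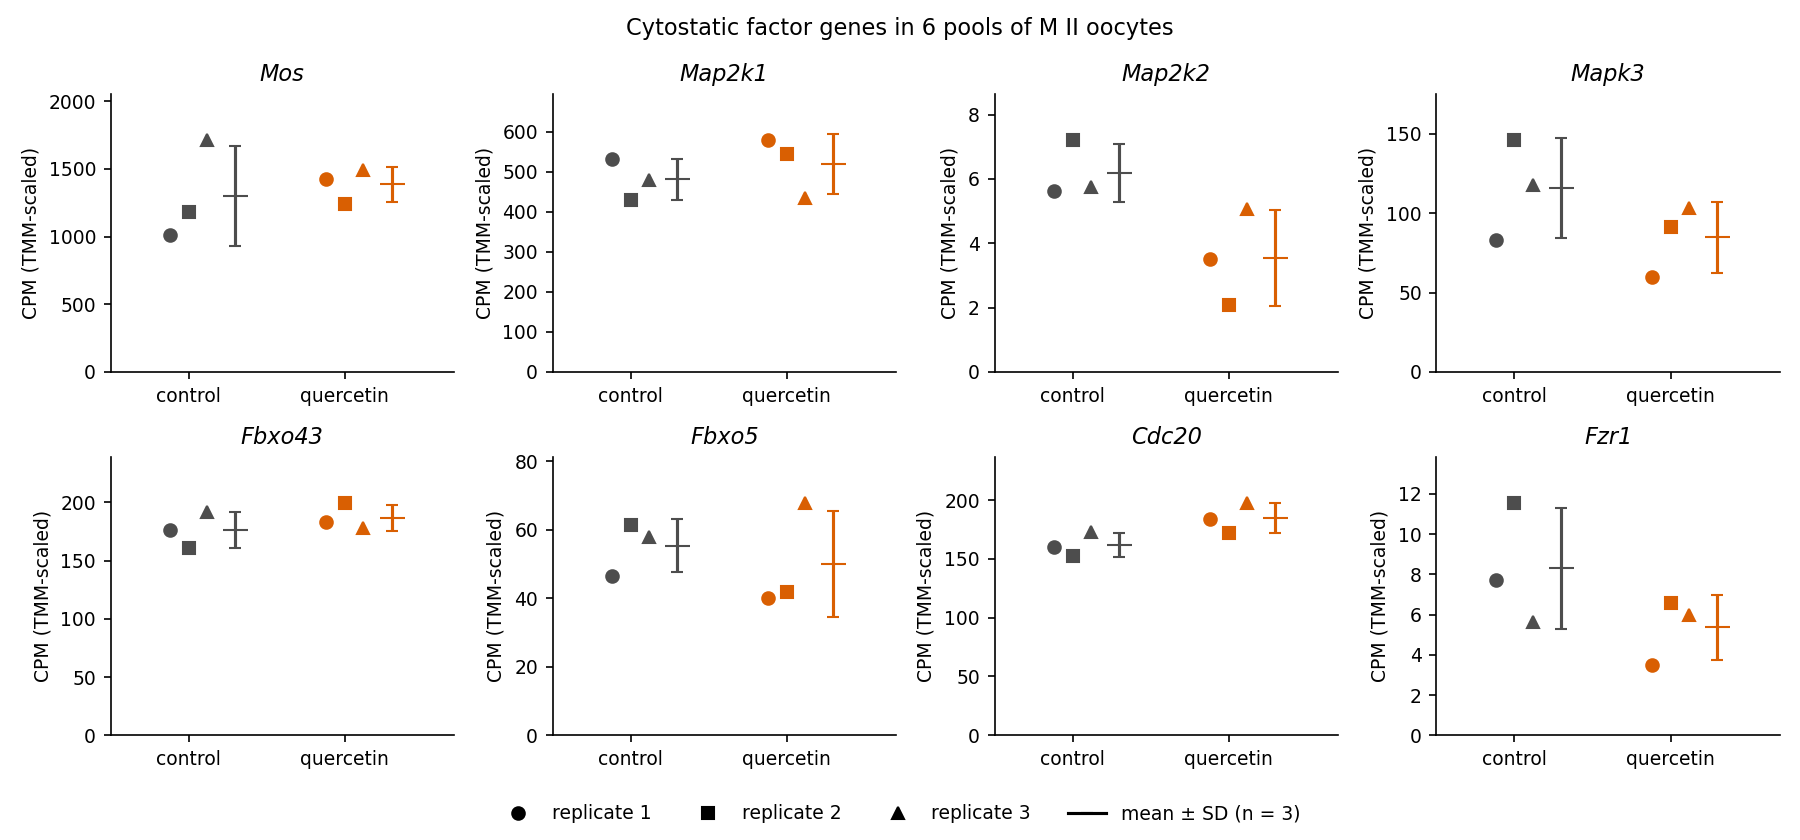
Level of the 8 tested genes in CPM (vertical axes from 0, TMM-scaled) in the 3 control and 3 quercetin pools; each symbol is a pool and each bar the mean ± SD of 3 pools. The groups overlap in every panel except *Map2k2*, where the 3 quercetin pools lie at 2.08 to 5.06 CPM and the 3 control pools at 5.61 to 7.21 CPM.

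Levels of different genes were compared per length, as CPM per kb of the principal annotated transcript, by the median and range over the 6 pools. *Mos* stood first at a median of 922 CPM per kb (698 to 1183), 4.43 times the median of *Map2k1* at 208 (176 to 238). *Cdc20* followed at 96.2 CPM per kb (84.9 to 110.0), then *Mapk3* at 54.1 (33.4 to 81.2) and *Fbxo43* at 44.8 (39.9 to 49.4). The ranges of *Mapk3* and *Fbxo43* overlapped, and with the length of all annotated exons in place of the principal transcript *Fbxo43* came before *Mapk3*. *Fbxo5* came next at 27.0 CPM per kb (20.7 to 34.9), below *Fbxo43* in 6 of 6 pools. That place depends on reads it may share with its pseudogene *Gm16042*. With the counts of *Gm16042* added, it stood at 51.8 CPM per kb (48.6 to 57.5), above *Fbxo43* in 6 of 6 pools. That sum takes every read on *Gm16042* as one of *Fbxo5*, while 24.0% of the 31-base words of *Gm16042* occur in *Fbxo5* transcripts. A gap of 12.2 times between medians parted *Fbxo5* from *Map2k2* at 2.22 (0.867 to 3.00) and *Fzr1* at 2.06 CPM per kb (1.15 to 3.78), which overlapped and stood in this order in only 3 of 6 pools. *Rps6ka2* was last, at 0 in 4 pools.

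**Figure D2:**
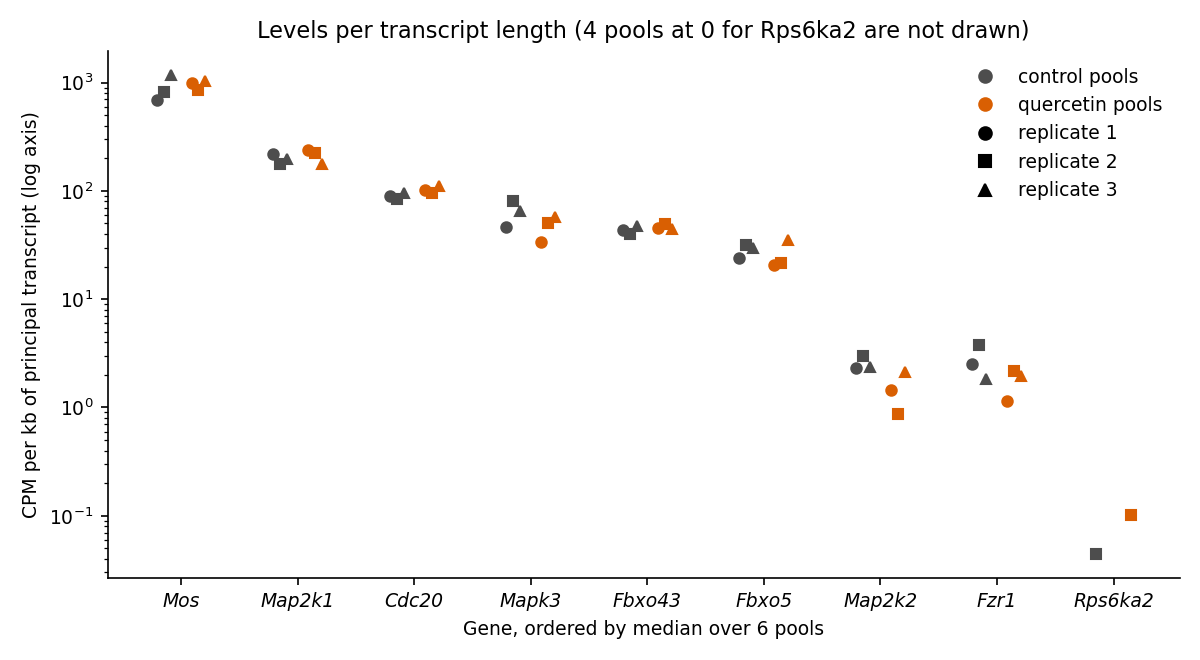
Level per kb of principal transcript of each of the 9 genes (log axis), each symbol a pool of the control or the quercetin group, ordered by the median over 6 pools. *Mos*, with a median of 922 CPM per kb, lies above every other gene in each pool, and *Map2k2* and *Fzr1* lie near 2 CPM per kb; the 4 pools at 0 for *Rps6ka2* cannot be drawn on this axis.

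The libraries were made from polyadenylated RNA, and in oocytes the tails of stored mRNAs are lengthened under the control of short elements at the 3′ end, so the ends of 4 members are shown. Capitals mark a cytoplasmic polyadenylation element (CPE, searched as TTTTAT or TTTTAAT) and the polyadenylation hexamer (AATAAA or ATTAAA), which are read on the transcript strand only. Each stretch lies in the 3′ untranslated region of the principal transcript, and these transcripts are on the minus strand of GRCm38 (sequences from GENCODE release M21).
Mos, chr4:3870661-3870690: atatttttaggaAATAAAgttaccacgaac
Fbxo43, chr15:36150068-36150097: ttaaaactaataATTAAAtttaaaatttac
Fbxo5, chr10:5799226-5799255: aatgtgagttttTTTTATatctgtgaatac
Cdc20, chr4:118432912-118432941: tttttaTTTTATtttttctAATAAAgttcg
In the last 100 bases of the transcript, *Cdc20* had 2 CPE matches that overlap by their end letter (the one in capitals and the one just before it), and *Fbxo5* and *Rps6ka2* had 1 each. The other 6 members, *Mos* and *Fbxo43* among them, had no such letters in this window. Other forms of the element and other transcript ends were not searched, so having no match here does not show that a transcript lacks a CPE. Over 21760 genes, 16.5% had a CPE match and 74.1% a hexamer in a window of this length. *Fzr1*, *Map2k2* and *Mapk3* had neither motif there.

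*Mos* (ENSMUSG00000078365) is an intronless gene, a lone exon of 1449 bases on chromosome 4 from 3870657 to 3872105. Its counts were 9010, 9798 and 15235 in control pools 1, 2 and 3, against 11398, 11332 and 12683 in the quercetin pools of these numbers. Control pool 3 was the highest and control pool 1 the lowest of all 6, so the quercetin pools lay within the range of the controls. In CPM this was 1301 ± 367 without and 1388 ± 129.6 with quercetin (SD, n = 3). The log2 fold change came to 0.093 (standard error 0.20, 95% interval -0.36 to 0.55, edgeR adjusted p = 0.993). The direction hung on control pool 1, without which the log2 fold change was -0.057. Counting error alone would give a coefficient of variation of 0.939% in control and 0.920% in quercetin pools, where 28.2% and 9.34% were measured. *Mos* made up 50.0% to 62.4% of the counts of the 9 genes and ranked between place 80 and place 128 among all genes by count.

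Of the MEK genes, *Map2k1* carried nearly all counts. *Map2k1* (ENSMUSG00000004936, chromosome 9 from 64185770 to 64253631, minus strand) had counts of 4747, 3572 and 4270 in the controls and of 4624, 4963 and 3697 with quercetin. The lowest pool of each group and the highest of each group lay close together, at 429 and 435 CPM and at 533 and 579 CPM. The group levels were 481 ± 51.6 and 520 ± 75.2 CPM (SD, n = 3). *Map2k1* thus had a log2 fold change of 0.11 (standard error 0.16, 95% interval -0.24 to 0.47, edgeR adjusted p = 0.988).

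*Map2k2* (ENSMUSG00000035027, chromosome 10 from 81105915 to 81133975, plus strand) had 50, 60 and 51 counts without quercetin and 28, 19 and 43 with it. It was the only member whose groups did not overlap, as was so for 5.17% of all tested genes in this direction. Its level was 6.19 ± 0.891 CPM without and 3.55 ± 1.49 CPM with quercetin (SD, n = 3). The estimate on the log2 scale was -0.80 (standard error 0.35, 95% interval -1.60 to -0.0049). The unadjusted p was 0.0489 and the adjusted p = 0.988 in edgeR's quasi-likelihood test, and the two-sided exact permutation test gave p = 0.1, the smallest that 3 pools against 3 allow. Quercetin pool 3, at 5.06 CPM, came nearest to the controls, and without it the log2 fold change was -1.15 (adjusted p = 0.269 in edgeR's quasi-likelihood test, and between 0.269 and 1.00 over the alternatives that gave one). At these counts, counting error alone gives a coefficient of variation of 13.7% in control and 18.3% in quercetin pools, where 14.4% and 41.9% were measured.

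The MAP kinase gene *Mapk3* (ENSMUSG00000063065, chromosome 7 from 126759601 to 126765819, plus strand), which encodes ERK1, had counts of 743, 1216 and 1049 in the controls and of 480, 830 and 880 with quercetin. The pools numbered 1 were the lowest of each group, and control pool 1, at 83.4 CPM, lay within the range of the quercetin pools (60.1 to 103.6 CPM). The means were 115.9 ± 31.5 and 84.9 ± 22.4 CPM (SD, n = 3), and *Mapk3* had a log2 fold change of -0.45 (standard error 0.26, 95% interval -1.03 to 0.13, edgeR adjusted p = 0.988). The same pools numbered 1 were also lowest of each group for the egg coat genes *Zp2* and *Zp3*. Of the other oocyte markers, *Zp1*, *Nlrp5*, *Bmp15* and *Ooep* shared this, and *Gdf9*, *Padi6*, *H1foo* and *Dppa3* did not. *Zp2* had counts of 1990, 12980 and 5601 in the controls and of 1045, 7734 and 11260 with quercetin. Without both of these pools, a choice made after seeing the data, the log2 fold change of *Mapk3* was -0.44. Leaving out 1 pool moved it further, to -0.24 without control pool 2, -0.25 without quercetin pool 1 and -0.64 without control pool 1.

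*Rps6ka2* (ENSMUSG00000023809, chromosome 17 from 7170115 to 7303315, plus strand), which encodes an RSK kinase, was near absent from these libraries. Control pool 2 had 2 counts, quercetin pool 2 had 5, and the other 4 pools had none. Only quercetin pool 2 was thus above the floor of 3 counts, no fold change is given, and a difference was not detectable at this depth. Of its 31-base words, 23.8% also occur in other genes. Among its relatives, *Rps6ka3* had counts of 302, 178 and 126 in the controls and of 159, 171 and 177 with quercetin, and *Rps6ka1* had 49, 16 and 20 and then 14, 16 and 36. Per length, *Rps6ka3* (2.81 CPM per kb) was above *Rps6ka1* (0.666 CPM per kb), without overlap of their ranges, and neither passed the test (edgeR adjusted p = 0.988 for each).

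The Emi2 gene *Fbxo43* (ENSMUSG00000048230, chromosome 15 from 36150060 to 36164884, minus strand) was among the steadiest members. It had counts of 1569, 1338 and 1703 in the controls and of 1462, 1817 and 1514 with quercetin. From the lowest to the highest pool, its CPM differed by 1.24 times, the smallest such ratio of the 8 tested members. The groups overlapped at 176 ± 15.4 and 187 ± 11.0 CPM (SD, n = 3), and the fold change on the log2 scale was 0.085 (standard error 0.14, 95% interval -0.22 to 0.39, edgeR adjusted p = 0.988).

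The Emi1 gene *Fbxo5* (ENSMUSG00000019773, chromosome 10 from 5799160 to 5805600, minus strand) had 415, 510 and 516 counts without and 320, 382 and 576 with quercetin. Quercetin pools 1 and 2 were below every control pool and quercetin pool 3 above every control pool. The levels of 55.3 ± 7.74 and 49.9 ± 15.5 CPM (SD, n = 3) gave *Fbxo5* a log2 fold change of -0.15 (standard error 0.24, 95% interval -0.68 to 0.39, edgeR adjusted p = 0.988). Its size depended on which pool was left out. It was -0.43 without quercetin pool 3, -0.012 without quercetin pool 1 and -0.035 without quercetin pool 2. Without control pools 1, 2 and 3 in turn it was -0.26, -0.066 and -0.11.

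Reads of *Fbxo5* can be split with a processed pseudogene, *Gm16042*, on chromosome 6 from 8595743 to 8596989. Of the 31-base words of *Fbxo5* transcripts, 14.8% also occur there, and *Gm16042* had counts of 462, 357 and 395 in the controls and of 433, 493 and 372 with quercetin. All of its bases also lie, on the other strand, in exons of *Glcci1*, a gene with 1623 to 3868 counts, so the origin of the reads on *Gm16042* cannot be told from the table. *Fbxo5* and *Gm16042* summed to 877, 867 and 911 counts without quercetin and 753, 875 and 948 with it. The mean log2 CPM of the sum differed by -0.019 (two-sided exact permutation test, p = 0.9). In CPM, quercetin pools 1 and 2 were again below every control pool and quercetin pool 3 above them, as for *Fbxo5* alone.

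*Cdc20* (ENSMUSG00000006398, chromosome 4 from 118432901 to 118437352, minus strand), the activator that starts anaphase, had counts of 1423, 1266 and 1536 in the controls and of 1471, 1568 and 1676 with quercetin. Only control pool 3, at 172.8 CPM, reached into the range of the quercetin pools (172.0 to 197 CPM). From 162 ± 10.4 CPM in controls, *Cdc20* stood at 185 ± 12.6 CPM with quercetin (SD, n = 3), which on the log2 scale is 0.19 (standard error 0.13, 95% interval -0.11 to 0.50, edgeR adjusted p = 0.988). Other genes, pseudogenes among them, share 25.5% of the 31-base words of *Cdc20*, but the 3 pseudogenes looked up in the table held between 0 and 3 counts per pool, and 2.84% of its exon bases overlap *Elovl1* on the other strand.

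*Fzr1* (ENSMUSG00000020235, chromosome 10 from 81366222 to 81378516, minus strand), the Cdh1 gene, was scarce. It had counts of 69, 96 and 50 in the controls and of 28, 60 and 51 with quercetin. Quercetin pool 1 was the lowest and control pool 2 the highest, while the other 4 pools lay between 5.63 and 7.74 CPM. With 8.30 ± 3.00 against 5.36 ± 1.63 CPM (SD, n = 3), *Fzr1* had a log2 fold change of -0.62 (standard error 0.35, 95% interval -1.42 to 0.18, edgeR adjusted p = 0.988). Leaving out control pool 2 brought it to -0.31.

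**Figure D3:**
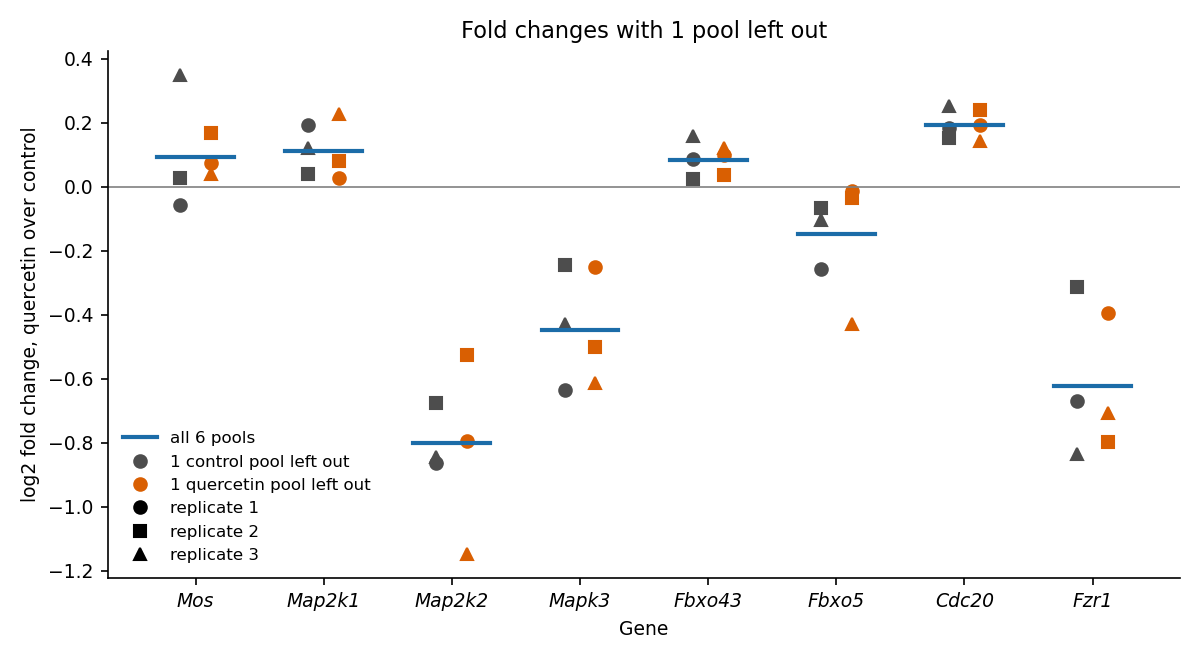
Log2 fold change (quercetin over control) of each tested gene with all 6 pools (blue line) and with 1 pool left out (grey for control, orange for quercetin, the symbol giving the replicate number). *Mos* crosses 0 without control pool 1, at -0.057, and *Map2k2* moves most, from -1.15 to -0.52.

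Ratios of partner genes within a pool need no scaling between pools, and 5 were compared, of which 4 are given here. The inhibitor ratio *Fbxo43* to *Fbxo5* was 3.78, 2.62 and 3.30 without quercetin and 4.56, 4.75 and 2.63 with it, so Emi2 transcripts had more counts than Emi1 transcripts in every pool. With the counts of *Gm16042* added to *Fbxo5*, the ratio was 1.79, 1.54 and 1.87 without quercetin and 1.94, 2.08 and 1.60 with it. The activator ratio *Cdc20* to *Fzr1* was 20.5, 13.1 and 30.4 without and 51.6, 25.9 and 32.6 with quercetin. The ratio *Map2k1* to *Map2k2* was 94.0, 59.0 and 82.9 without quercetin and 162, 255 and 85.0 with it. Values are ratios of counts with 0.5 added, not adjusted for length.

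On the log2 scale, the difference in mean ratio (quercetin minus control) was 0.27 for *Fbxo43* to *Fbxo5*, 0.80 for *Cdc20* to *Fzr1* and 0.98 for *Map2k1* to *Map2k2*. The groups overlapped in each. With 1 pool left out, these differences ran from 0.12 to 0.54, from 0.50 to 1.10 and from 0.61 to 1.40 in this order, the lowest values being without quercetin pool 2, control pool 2 and quercetin pool 2. With *Gm16042* added to *Fbxo5*, the first was 0.11 (exact permutation test, p = 0.5). Two-sided exact permutation tests of the 3 differences with all pools gave p = 0.4, p = 0.2 and p = 0.2, and 0.5 for each after Benjamini-Hochberg adjustment over the 5 ratios. The ratio of *Mos* to *Rps6ka2* rested on the 0.5 added to counts of 0 and carries no information (exact permutation test, p = 0.8).

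**Figure D4:**
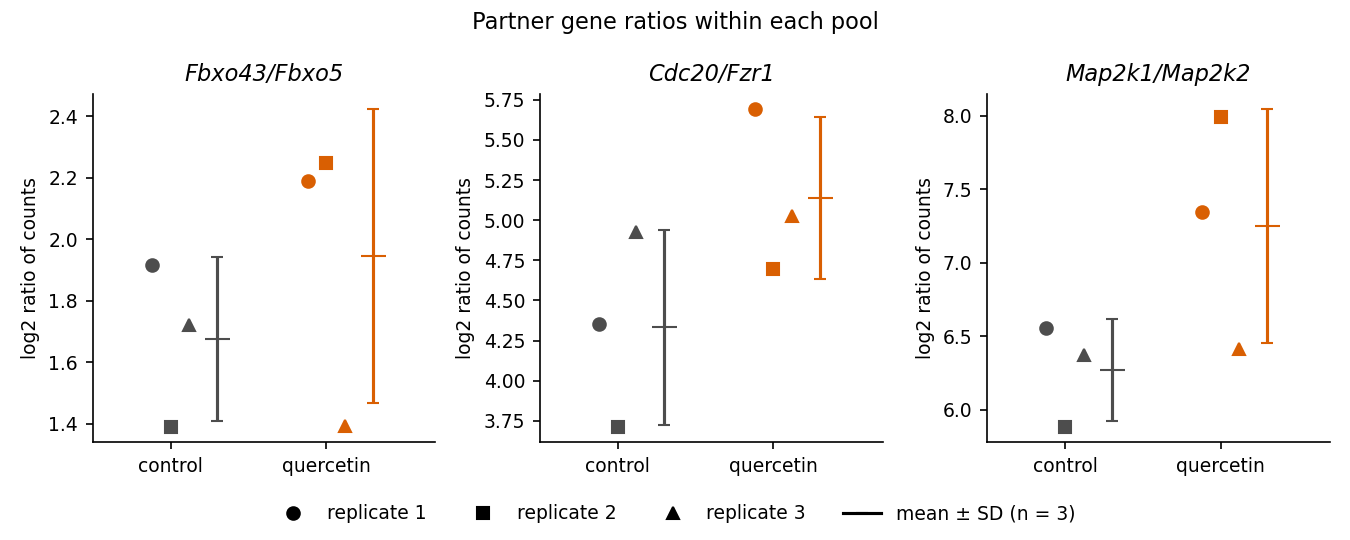
Log2 ratio of counts of 3 partner gene pairs within each pool (each axis has its own range and does not start at 0), with mean ± SD of 3 pools per group. In each pair at least 1 quercetin pool lies within the range of the controls or the reverse, as for *Map2k1* to *Map2k2*, where quercetin pool 3 lies among the control pools.

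Around the 9 genes, 46 further genes of the pathway were read from the same fit in 4 lists, and 42 of them were tested. None had an adjusted p under 0.05 in edgeR's quasi-likelihood test or in DESeq2 (0% and 0.144% of all tested genes). DESeq2 gave no adjusted p for the member *Map2k2*, and how many of the 42 also had none is not given here. At an unadjusted p under 0.05 there were 0 of the 42 in DESeq2, beside 3.24% of all tested genes. In edgeR there was 1 of the 42, beside 4.03%. That gene was *Ube2s*, an E2 enzyme that extends ubiquitin chains on APC/C substrates. *Ube2s* had counts of 138, 89 and 93 in the controls and of 60, 80 and 72 with quercetin. The groups did not overlap in CPM with or without TMM, as was so with TMM for 5.17% of all tested genes in this direction. Its log2 fold change was -0.56 (standard error 0.25, unadjusted p = 0.0484 and adjusted p = 0.988 in edgeR's quasi-likelihood test).

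Of the 16 genes for APC/C subunits and their E2 enzymes, all were tested, with 10 estimates positive and 6 negative and a median log2 fold change of 0.03. *Cdc27*, a scaffold subunit, had 380.5 ± 26.1 and 388 ± 19.3 CPM (SD, n = 3) and a log2 fold change of 0.027 (95% interval -0.27 to 0.32). *Anapc10*, which helps to bind substrates, had 218 ± 18.7 and 245 ± 45.9 CPM (SD, n = 3), and *Ube2c*, the E2 that starts the chains, 108.9 ± 34.6 and 120.02 ± 32.4 CPM (SD, n = 3). These had log2 fold changes of 0.17 and 0.14.

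Of the 8 relatives of the kinase arm, 7 had a negative estimate, as had 6352 of all 11842 tested genes, with a median log2 fold change of -0.15. The most abundant was *Cdk2ap2* (DOC1R), a MAP kinase substrate of the egg, at 707 ± 101.2 and 668 ± 143 CPM (SD, n = 3). In the list for Emi1 and Emi2 turnover and egg activation, 11 of 15 were tested, with 6 positive and 5 negative and a median of 0.02. It held the subunits of the SCF ubiquitin ligase, *Cul1* at 2832 ± 59.7 and 3276 ± 447 CPM, *Skp1a* at 1010 ± 236 and 916 ± 103 CPM and *Rbx1* at 501 ± 34.2 and 479 ± 107.5 CPM (SD, n = 3). Of the CaMKII genes, whose product marks Emi2 for destruction at fertilization, *Camk2g* had 177 to 291 counts and *Camk2a* none.

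Of the 7 APC/C substrates (with the protease gene *Espl1* counted among them), 5 had a positive estimate, and the median was 0.14. *Ccnb1*, the cyclin B1 gene, had counts of 31205, 28250 and 33258 in the controls and of 29988, 47701 and 35609 with quercetin. Its groups did not overlap in TMM-scaled CPM, as was so for 5.42% of all tested genes in this direction, but overlapped when counts were scaled by the pool totals alone. It had a log2 fold change of 0.31 (95% interval -0.05 to 0.67, edgeR adjusted p = 0.988). The securin gene *Pttg1* had 18263 to 42504 counts and a log2 fold change of 0.14, and *Gmnn*, the geminin gene, had 4106 to 7326 counts and 0.29.

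**Figure D5:**
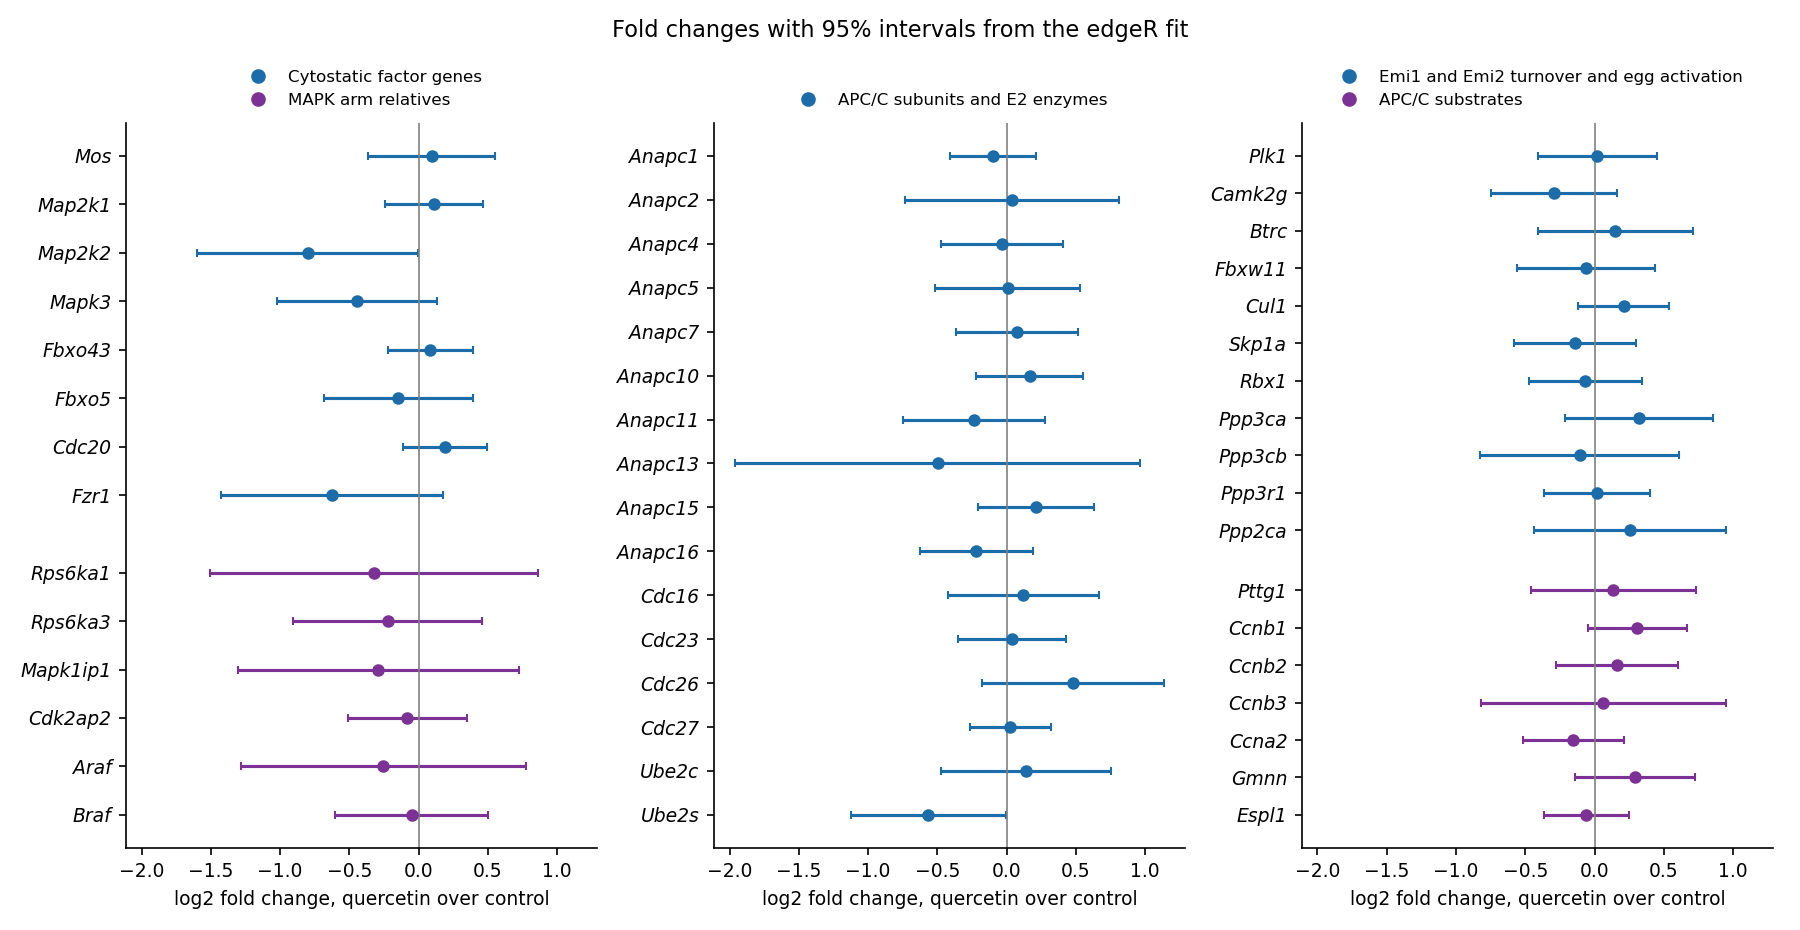
Log2 fold change (quercetin over control) with its 95% interval from edgeR's fit for the 8 tested members and 40 of the 42 tested genes of the 4 pathway lists. Every interval holds 0 except those of *Map2k2* (-1.60 to -0.0049) and *Ube2s* (-1.12 to -0.0048), and the widest belongs to *Anapc13*, at 14 to 125 counts.

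Among 5862 genes with a mean of at least 100 counts, those whose log2 CPM, centred on its mean, lay closest to that of a member over the 6 pools were sought by root mean square distance. For *Mos* they were *Hnrnpa2b1* at 0.0421, *Papola* at 0.0531 and *Wars* at 0.0677, where the spread of *Mos* itself was 0.248 on this scale. *Hnrnpa2b1*, for example, had counts of 1380, 1618 and 2361 in the controls and of 1782, 1759 and 1904 with quercetin, again highest in control pool 3 and lowest in control pool 1. For *Fbxo43* they were *Rrm2b*, *Hace1* and *Usp15* at 0.0362 to 0.0387, with a spread of its own of 0.0975. For *Cdc20* they were *Ap1m1*, *Brd8* and *Hspd1* at 0.0374 to 0.0397, with a spread of its own of 0.123. The distance is a description over 6 pools that share these libraries.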

How the data were processed

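Per the sample labels, 6 pools of M II oocytes were sequenced. The authors made the libraries with the smart-seq HT Kit and, in the paper's methods, aligned reads with Hisat2 to GRCm38.91, while the submitters' processing notes list CASAVA 1.8 and TopHat2 2.0.6. The deposited values are raw counts of reads per Ensembl gene, neither normalized nor pooled. The counting program and its handling of strand and of shared reads are not given in the sources used here, so overlapping and similar genes can exchange reads.

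Symbols and coordinates were taken from GENCODE release M21 (GRCm38) for 53360 of 53465 identifiers. A minimum count of 10 in filterByExpr (edgeR 4.0.16) left 11842 of the 24476 genes that had any count. Counts were scaled by TMM and tested with glmQLFit and glmQLFTest (no covariate, R 4.3.3), with adjustment over all 11842 genes and a threshold of 0.05. The standard error is the log2 fold change divided by the square root of F, and 95% intervals are not adjusted for the number of genes. The fit was tested on simulated counts.

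The named genes are the 9 members, the genes of each pathway list with an unadjusted p under 0.05 or among its 3 highest in CPM, and the 3 genes closest to *Mos*, *Fbxo43* and *Cdc20*. *Rps6ka1*, *Rps6ka3*, *Camk2a*, *Camk2g*, *Anapc13*, *Zp2*, *Zp3*, *Ooep*, *Cyp19a1*, *Pecam1*, *Glcci1*, *Espl1* and the genes that share sequence with a member were named after their values were seen. The other oocyte markers were too. Genes withheld from this text, and a ratio that needs one, are not reported here. The members and lists were chosen with earlier results of these data known. Alternatives were DESeq2 1.42.0, other scalings, a filter of 1 count, unadjusted p-values, each pool left out, and the replicate number as a block. Python 3.11.15 was used for exact tests, and matplotlib 3.10.9 for plots.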

Additional observations from a re-analysis of the deposited data

How the results depend on the processing

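No member and no pathway gene was called under any alternative with adjusted p-values (DESeq2, other scalings, a filter of 1 count, each pool left out, the replicate block, or without both pools numbered 1, the last added after seeing the data), the range with a pool left out being 0 to 0. The smallest adjusted p of a member was 0.269, for *Map2k2* without quercetin pool 3. DESeq2 gave no adjusted p for *Map2k2*. Unadjusted p-values in edgeR called 1 member, *Map2k2* (log2 fold change -0.80), and 1 pathway gene, *Ube2s*, beside 4.03% of all tested genes. Of 11 other edgeR fits, 2 gave *Map2k2* an unadjusted p under 0.05, and it was missed under both other scalings, under the block and in 5 of 6 fits with a pool left out. The count of pathway genes at that p was 0 in 8 of the 11 fits and at most 5 (of 43 tested), without quercetin pool 3. The share of all tested genes at that p in that fit is not given here, so the 5 cannot be set against it. The log2 fold change of *Mos* turned to -0.057 without control pool 1 and to -0.080 without both pools numbered 1, and ran from -0.057 to 0.35 with a pool left out. The ratio of *Mos* to *Rps6ka2* (-0.28 on the log2 scale) ran from -1.14 to 0.90 with a pool left out, and gave no value without the added 0.5, since *Rps6ka2* had counts of 0. The other 7 tested members and the other 4 ratios kept their sign under every alternative, but the small positive estimates moved with the scaling. By library size alone the log2 fold change was 0.00010 for *Fbxo43*, 0.020 for *Map2k1* and 0.11 for *Cdc20*. The exact test cannot go under p = 0.1 with 3 pools against 3, and with 1 pool left out it cannot reach 0.05 either.

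Deviations from the group means correlated by 0.296, 0.101 and -0.0303 between the pools numbered 1, 2 and 3, so the numbers were not taken to pair the pools, and not every pool correlated best with its own number. Blocking on the replicate number, edgeR called 0 members and 0 pathway genes by adjusted p. The log2 fold change under the block was 0.13 for *Mos*, -0.85 for *Map2k2* and -0.45 for *Mapk3*, which had an unadjusted p of 0.0314 in that edgeR fit. Ratios within a replicate number gave the same differences, and a sign-flip exact permutation test of 3 pairs cannot go under p = 0.25. Depth limits *Rps6ka2*, *Map2k2* and *Fzr1* most, and edgeR's common biological coefficient of variation came to 0.269.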
